A study of Mus musculus with 4 samples.

Results

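The fibulins are a small family of secreted glycoproteins of the extracellular matrix. The family was read here as every probe set annotated to Efemp1, Efemp2, Fbln1, Fbln2, Fbln5, Fbln7 or Hmcn1, which gave 10 probe sets of 45037 (control probe sets left out) for 6 of the 7 genes. Efemp2 had no probe set under its name in the annotation used and was not analysed here. The family was selected on the Sox9cKO against SmoM2 difference of Efemp1, already known to be large on these arrays. The differences of its members are therefore given as a description, without p-values.

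RNA of basal cells sorted from the epidermis of mouse tails was hybridised to Affymetrix 3' arrays. The sort kept cells with integrin alpha 6 on their surface and without CD34, a marker of bulge stem cells. The Sox9cKO group (K14CreER:SmoM2:Sox9cKO) had SmoM2 expressed and Sox9 deleted, and the SmoM2 group (K14CreER:SmoM2) had SmoM2 expressed with Sox9 intact. SmoM2 is a constitutively active form of Smoothened, the signal transducer of the Hedgehog pathway, and K14CreER is a tamoxifen-dependent recombinase driven in basal keratinocytes. Both groups thus shared the active Hedgehog pathway, the recombinase and the tamoxifen course, at 2.5 mg on each of 10 days. Cells were collected 9 weeks after the first dose, with 2 arrays per group. The age of the mice and the number of animals behind an array are not stated, so the spread between arrays may be partly technical. There was no group without SmoM2, so values are not set against normal epidermis.

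Fibulins carry rows of calcium-binding EGF-like repeats followed by a shared module at the C terminus. They bridge other matrix molecules, and are known in skin from elastic fibres and from basement membranes. The products of Efemp1, Efemp2 and Fbln5 are short fibulins linked to elastic fibres, while those of Fbln1, Fbln2 and Hmcn1 are larger proteins found at basement membranes and in loose matrix. Fbln7 encodes a further short member that binds cells.

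The 4 arrays had medians between 5.45 and 5.48 on the log2 scale, and arrays of different groups correlated across probe sets at Pearson's r of 0.978 to 0.980, against 0.991 within each group (probe sets are not independent replicates). Sox9 was lower in Sox9cKO cells by 3.89 on the log2 scale at 1 of its probe sets, 1451538_at (SE 0.31, limma adjusted p = 0.00171 over all probe sets), and its other probe sets changed by -0.75 (adjusted p = 0.148) and -0.41 (adjusted p = 0.309). It is not stated which of these probes lie in the deleted part of the gene. Each group held 1 array with Y-linked signal and 1 without it. The spiked labelling controls averaged 9.19 and 7.66 in Sox9cKO replicates 1 and 2 and 9.00 and 8.30 in SmoM2 replicates 1 and 2. Of the basal keratinocyte markers, Krt14 read 13.15 and 13.30 in Sox9cKO cells and 13.51 and 13.76 in SmoM2 cells, and Krt5 read 13.20 and 13.40 against 13.20 and 13.41.

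Sox9cKO cells had far more Efemp1 signal than SmoM2 cells, while the other fibulins were lower or little different. Efemp1, a matrix glycoprotein whose product binds the metalloproteinase inhibitor encoded by Timp3, had log2 signals of 10.15 and 10.46 in the Sox9cKO arrays and 5.97 and 6.16 in the SmoM2 arrays. Both Sox9cKO arrays lay far above both SmoM2 arrays. The means were 10.31 ± 0.22 in Sox9cKO and 6.07 ± 0.13 in SmoM2 (SD, n = 2 each), a difference of 4.24 (SE 0.17) or 18.9-fold. By size of increase it stood at place 6 among all probe sets. Efemp1 was read by a single probe set, 1427183_at, so no further probe set checks this value. In bulk samples such as these, a change in the number of cells of a type and a change in RNA per cell cannot be told apart.

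Among the 6 measured members, each read at its brightest probe set, 2 were at least 2-fold apart, with Efemp1 higher and Fbln2 lower, against 4.19% of all genes. Hmcn1, at -0.98, lay just short of that size. The arrays of the genotypes did not overlap for 5 of the 6 members, against 47.9% of all genes. The differences were positive for 2 members and negative for 4, with a median of -0.65 on the log2 scale, against 0.02 over all 18193 genes. Because the same comparison led to the choice of the family, these shares are not evidence about it.

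**Figure D1:**
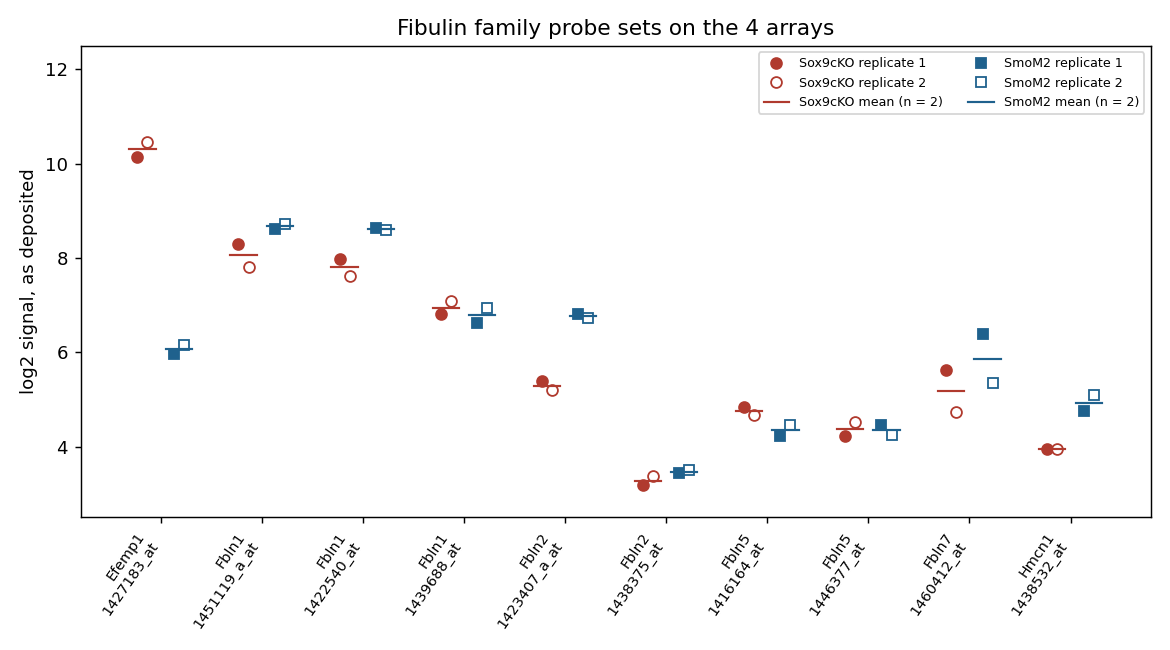
Log2 signal of each of the 10 fibulin family probe sets (x axis) on every array, with Sox9cKO arrays as red circles and SmoM2 arrays as blue squares (replicate 1 filled, replicate 2 open) and short lines at the group means (n = 2). Efemp1 stands above 10 on both Sox9cKO arrays and near 6 on both SmoM2 arrays. Probe sets differ in their response, so heights are to be compared within a probe set.

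Fbln5, the other short elastic fibre fibulin with a probe set, encodes a protein that binds integrins and is needed for elastic fibre formation in mice. At 1416164_at it read 4.83 and 4.67 in Sox9cKO cells and 4.23 and 4.47 in SmoM2 cells, a difference of 0.40 (SE 0.15). The groups did not overlap, but both lay low on the scale. At its other probe set, 1446377_at, Fbln5 read 4.22 and 4.51 in Sox9cKO cells and 4.46 and 4.24 in SmoM2 cells, so the groups overlapped and the difference was 0.01 (SE 0.17). The size of the Efemp1 difference was thus not seen in Fbln5. As a guide to the low end of the scale, Y-linked genes read 3.23 to 3.62 on the arrays that lacked Y-linked signal.

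Fbln1, whose product binds fibronectin, laminin and versican, was read by 3 probe sets. At 1451119_a_at it had signals of 8.31 and 7.81 in Sox9cKO cells and 8.61 and 8.73 in SmoM2 cells, a difference of -0.61 (SE 0.19). At 1422540_at it had 7.98 and 7.63 in Sox9cKO cells and 8.64 and 8.60 in SmoM2 cells, a difference of -0.81 (SE 0.17). Both probe sets were lower on each Sox9cKO array than on either SmoM2 array. The third, 1439688_at, read 6.81 and 7.09 in Sox9cKO cells and 6.63 and 6.94 in SmoM2 cells, where the groups overlapped and the difference was 0.16 (SE 0.17). The probe sets of Fbln1 therefore disagreed. The difference at 1451119_a_at was -0.86 without Sox9cKO replicate 1 and -0.36 without Sox9cKO replicate 2.

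Fbln2, which encodes a basement membrane fibulin that binds nidogen and laminin, had the largest decrease of the family. Its probe set 1423407_a_at read 5.38 and 5.20 in Sox9cKO cells and 6.81 and 6.73 in SmoM2 cells. The groups were well apart, at means of 5.29 ± 0.13 in Sox9cKO and 6.77 ± 0.05 in SmoM2 (SD, n = 2 each), a difference of -1.48 (SE 0.15) or 2.78-fold. Its second probe set, 1438375_at, lay at the low end of the scale, with 3.19 and 3.36 in Sox9cKO cells and 3.43 and 3.49 in SmoM2 cells (a difference of -0.19, SE 0.14). Averaged over both probe sets, the Fbln2 difference was -0.83.

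Hmcn1 encodes hemicentin, a very long member of the family that anchors tissues at basement membranes. Its signal was 3.94 and 3.95 in Sox9cKO cells and 4.76 and 5.09 in SmoM2 cells, a difference of -0.98 (SE 0.16). The groups did not overlap, and the Sox9cKO values lay not far above the level of Y-linked genes on arrays without Y-linked signal, so the size of the decrease is not exact.

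Fbln7 varied most between replicates. It read 5.62 and 4.74 in Sox9cKO cells and 6.38 and 5.36 in SmoM2 cells, so that the groups overlapped. The difference of -0.69 (SE 0.39) was similar in size to the spread within the groups (SD 0.62 in Sox9cKO and 0.72 in SmoM2). It was -1.13 and -0.25 without Sox9cKO replicate 1 or 2, and -0.18 and -1.20 without SmoM2 replicate 1 or 2.

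**Figure D2:**
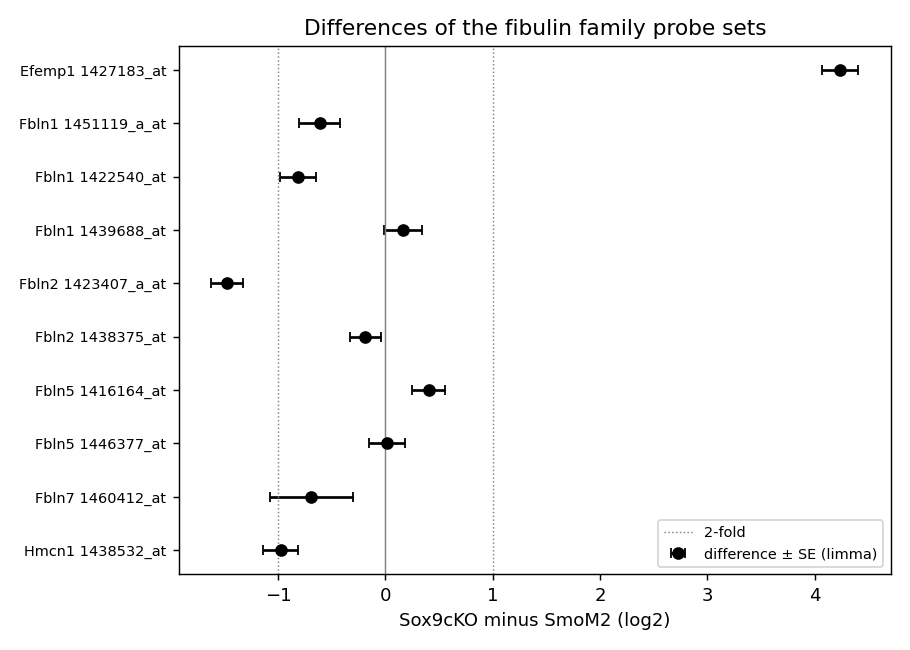
Sox9cKO minus SmoM2 difference in log2 signal (x axis) of each fibulin family probe set (y axis), with bars of 1 SE from limma (2 arrays per group) and dotted lines at 2-fold. Efemp1 lies at 4.24, Fbln2 at -1.48 and Hmcn1 at -0.98, and every other probe set lies between -0.81 and 0.40.

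The sequence before the transcription start is shown for the members that differed most, Efemp1 in the upward and Fbln2 and Hmcn1 in the downward direction, because the deleted gene encodes a transcription factor and SmoM2 acts through the Gli factors. Each run holds the 250 bases before the start, 5′ to 3′ on the strand of the gene (RefSeq, GRCm38.p6), at chr11:28852955-28853204 on the plus strand for Efemp1, chr6:91212514-91212763 on the plus strand for Fbln2 and chr1:150993436-150993685 on the minus strand for Hmcn1. Capitals mark matches on either strand to 6 motifs. Both SOX cores were searched, with letters ACAAT in the first and letters ACAAAG in the second. The core of the GLI site was searched as CCACCCA, the TATA box as TATAAA, the CCAAT box by its name, and the GC box as GGGCGG.
Efemp1: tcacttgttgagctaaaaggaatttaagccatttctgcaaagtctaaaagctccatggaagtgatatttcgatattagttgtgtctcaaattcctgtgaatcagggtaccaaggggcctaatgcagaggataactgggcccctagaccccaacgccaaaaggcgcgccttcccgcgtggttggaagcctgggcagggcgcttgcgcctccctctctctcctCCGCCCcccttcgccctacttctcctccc
Fbln2: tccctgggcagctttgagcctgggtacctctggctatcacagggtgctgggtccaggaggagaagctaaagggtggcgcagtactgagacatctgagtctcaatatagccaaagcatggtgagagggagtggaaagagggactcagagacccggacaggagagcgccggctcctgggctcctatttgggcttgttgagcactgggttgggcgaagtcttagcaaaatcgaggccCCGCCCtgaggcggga
Hmcn1: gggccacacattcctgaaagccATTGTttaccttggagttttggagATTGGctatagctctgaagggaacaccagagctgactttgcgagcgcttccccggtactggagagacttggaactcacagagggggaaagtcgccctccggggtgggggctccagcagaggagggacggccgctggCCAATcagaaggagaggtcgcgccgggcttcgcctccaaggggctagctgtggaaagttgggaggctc

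The Efemp1 window held a GC box 29 bases before the start and none of the other motifs. The Fbln2 window held a GC box 16 bases before the start and none of the others. The Hmcn1 window held the first SOX core on the opposite strand 228 bases before the start and CCAAT boxes at 204 and 68 bases, with no match overlapping another. Of 32851 promoter windows of the same length, 27.7% held the first SOX core and 16.5% the second, 8.1% held the GLI core, 12.4% the TATA box, 33.8% the CCAAT box and 32.7% the GC box. GC content was 53.6% for Efemp1, 58.8% for Fbln2 and 60.0% for Hmcn1, against a median of 52.4% over all windows. A match or its lack says only which letters stand in the window, and binding was not measured.

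Among the partners of fibulins in elastic fibres, fibrillin-2 was lower in Sox9cKO cells and no gene passed the test in the direction of Efemp1. Of 21 measured genes that build or crosslink elastic fibres, none rose and 1 fell by limma at an adjusted p under 0.05. That was 4.76%, against 6.19% of all genes. By unadjusted limma p under 0.05 there were 2, and the share of all genes at that cut was not counted. The list's median difference was -0.01, against 0.02 over all genes. The gene that fell was Fbn2, which encodes the microfibril protein fibrillin-2. It read 6.84 and 6.56 in Sox9cKO cells and 9.40 and 9.56 in SmoM2 cells, a difference of -2.77 (SE 0.16, limma adjusted p = 0.000291) or 6.84-fold, and its other probe set differed by -2.64. Both arrays of Sox9cKO lay far below both of SmoM2.

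Elastin itself, Eln, read 6.54 and 6.55 in Sox9cKO cells and 6.13 and 6.36 in SmoM2 cells (a difference of 0.30, limma adjusted p = 0.343). The lysyl oxidase genes Lox and Loxl1, whose products crosslink elastin, differed by -0.13 and -0.01. Both lay low on the scale, Lox at 4.31 to 4.66 and Loxl1 at 4.30 to 4.47 over all arrays. The brightest members that did not pass were Ltbp3 and Ltbp1, which encode binding proteins of latent TGF-beta, and the copper transporter gene Atp7a, at 0.40, 0.23 and 0.42 with limma adjusted p of 0.360, 0.603 and 0.324. Ltbp3 was at -0.01 at its second probe set.

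Among 32 measured genes for proteins described as binding fibulins, 1 rose (against 2.66% of all genes) and 1 fell (against 3.53%). Vcan, which encodes the proteoglycan versican, a ligand of the products of Fbln1 and Fbln2, read 9.13 and 8.21 in Sox9cKO cells and 6.90 and 7.07 in SmoM2 cells. It rose by 1.69 (SE 0.28, limma adjusted p = 0.0150) or 3.22-fold, and 2 further probe sets with clear signal differed by 1.84 and 1.35. Its adjusted p was 0.111 and 0.0902 without SmoM2 replicate 1 or 2, and 0.117 when its probe sets were averaged, several of which lay at the low end of the scale. Ecm1, which encodes a skin matrix protein that binds the product of Fbln1, fell by 1.10 (SE 0.15, limma adjusted p = 0.00673), with 6.48 and 6.68 in Sox9cKO cells and 7.58 and 7.80 in SmoM2 cells. Without SmoM2 replicate 2 its adjusted p was 0.0592.

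Timp3, the inhibitor gene whose product binds that of Efemp1, read 10.83 and 10.12 in Sox9cKO cells and 9.67 and 9.65 in SmoM2 cells, a difference of 0.81 (SE 0.23) that did not pass (limma adjusted p = 0.100). Its other 3 probe sets differed by 0.52, 0.56 and 0.85. Egfr, the EGF receptor gene, whose product has been reported to bind that of Efemp1, differed by 0.29 (limma adjusted p = 0.425), and the integrin gene Itgav by 0.08 (limma adjusted p = 0.871). The nidogen and laminin partners also stayed short of the threshold, at 0.02 for Nid1, 0.24 for Nid2 and -0.04 for Lamc1. Nid2 read 3.64 to 4.14 over all arrays, at the low end of the scale. The list's median difference was 0.08.

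Of 39 measured genes for other matrix or secreted proteins with EGF repeats, none rose and 2 fell, or 5.13%, against 6.19% of all genes. By unadjusted limma p under 0.05 there were 12, with the share of all genes at that cut not counted. The 2 that fell were Fbn2, which is also in the elastic fibre list, and Egfl6, which encodes a basement membrane protein of the hair follicle. Egfl6 read 3.69 and 3.80 in Sox9cKO cells and 6.53 and 7.10 in SmoM2 cells, and changed by -3.07 (SE 0.20, limma adjusted p = 0.000446) or 8.41-fold. The Sox9cKO values were at the low end of the scale. Among the brightest that did not pass, Agrn (agrin) differed by -0.46 (limma adjusted p = 0.193) and Tnc (tenascin C) by 0.73 (limma adjusted p = 0.352). The list's median was 0.06.

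**Figure D3:**
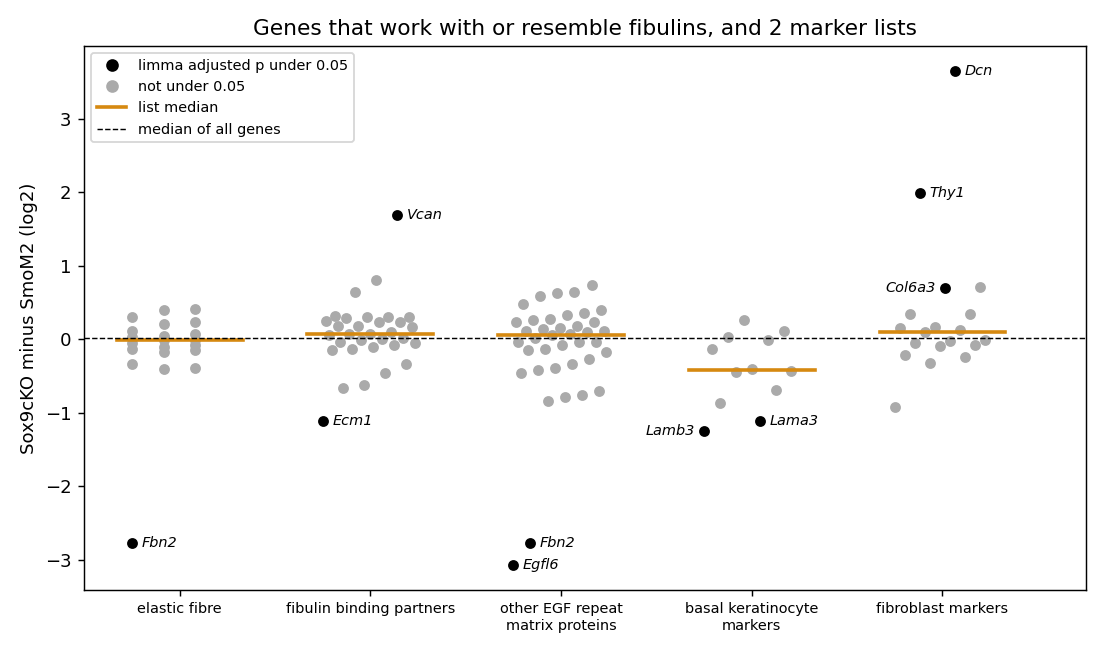
Sox9cKO minus SmoM2 difference in log2 signal (y axis) of each measured gene of 3 lists related to fibulins and of 2 marker lists (x axis), with genes under a limma adjusted p of 0.05 in black and named, others in grey, list medians in orange and the median of all genes as a dashed line. Fbn2 and Egfl6 lie near -3, and the medians of the 3 fibulin-related lists lie between -0.01 and 0.08.

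Fibulins are made in quantity by fibroblasts, so markers of that cell type were read beside Efemp1. Of 19 measured fibroblast markers 3 rose and none fell, so that 15.8% were called, against 6.19% of all genes. Dcn (decorin) rose by 3.66 (SE 0.23, limma adjusted p = 0.000446), and by 1.33 (SE 0.25) at its dimmer second probe set, 1441506_at. Thy1 rose by 1.99 (SE 0.16, limma adjusted p = 0.000831) and Col6a3 by 0.70 (SE 0.15, limma adjusted p = 0.0368). Col6a3 lost its call when any 1 of the 4 arrays was left out, with adjusted p between 0.0770 and 0.186. The remaining 16 did not pass. The list's median was 0.10, with 10 positive and 9 negative differences. By limma 6 of the markers had an unadjusted p under 0.05, of which Col6a1 was lower. The share of all genes at that cut was not counted. The marker lists were chosen with earlier results of these data known, so their shares of called genes are not evidence about cell types.

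The other fibroblast markers spread over the lower part of the scale. Several that define the cell type were dim on all arrays. Col1a1, a chain of collagen type I, read 4.38 and 4.17 in Sox9cKO cells and 4.51 and 4.08 in SmoM2 cells, and Col3a1 read 4.21 and 3.81 in Sox9cKO cells and 3.97 and 3.71 in SmoM2 cells. Lum (lumican) read 3.86 and 4.01 in Sox9cKO cells and 3.94 and 4.08 in SmoM2 cells. Dpt (dermatopontin) read 3.87 and 4.07 in Sox9cKO cells and 3.72 and 3.97 in SmoM2 cells, and the receptor gene Pdgfra read 4.50 and 4.60 in Sox9cKO cells and 3.97 and 4.43 in SmoM2 cells. Others were brighter. Col1a2 read 5.96 and 6.59 in Sox9cKO cells and 5.96 and 5.16 in SmoM2 cells (limma adjusted p = 0.273), and Vim (vimentin) read 6.48 and 6.45 in Sox9cKO cells and 6.89 and 6.46 in SmoM2 cells. Col5a1, the brightest not called, differed by -0.33 (limma adjusted p = 0.444), and Col6a1 differed by -0.91 without passing the test. Summed on the linear scale, the 19 markers reached 5146 to 7887 in Sox9cKO arrays and 1189 to 1210 in SmoM2 arrays. Most of the Sox9cKO sum came from Dcn. Without the 3 called markers the sums were 624 and 681 in Sox9cKO arrays and 686 and 716 in SmoM2 arrays. The part of fibroblasts in the Efemp1 value was not tested.

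**Figure D4:**
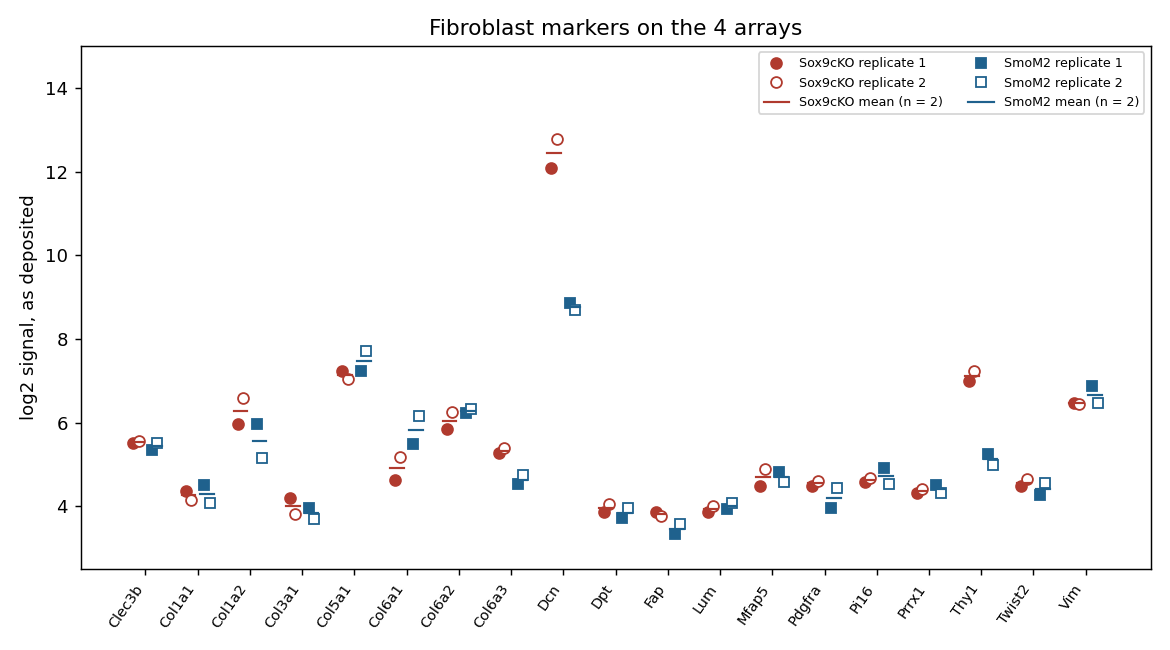
Log2 signal of the 19 fibroblast markers (x axis) on every array, with Sox9cKO arrays as red circles and SmoM2 arrays as blue squares (replicate 1 filled, replicate 2 open) and lines at the group means (n = 2). Dcn and Thy1 are higher and Col6a1 is lower on both Sox9cKO arrays, and Col1a1, Col3a1, Lum and Dpt lie between 3.71 and 4.51 on all arrays.

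Other marker lists were read in the same way, against 6.19% of all genes called. Of 12 endothelial markers, 11 leukocyte markers and 9 melanocyte and Schwann cell markers none was called by limma, with medians of -0.01, 0.28 and 0.20. Respectively 1, 4 and 2 had an unadjusted limma p under 0.05, a cut for which the share of all genes was not counted. The brightest were Egfl7 and Esam for endothelium, at 0.59 and -0.35, Laptm5 and Csf1r for leukocytes, at 0.51 and 0.05, and Erbb3 and Dct for pigment and glial cells, at 0.39 and 0.59. All 11 leukocyte markers had a positive difference, and they summed to 528 to 562 in Sox9cKO arrays and 411 to 456 in SmoM2 arrays. The part of these cells in the fibulin values was not tested. Of 12 smooth muscle and pericyte markers 1 fell (8.33%), Cspg4, by 1.32 (SE 0.17, limma adjusted p = 0.00516), with a list median of -0.17, and the brightest, Notch3, differed by 0.30.

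The markers of the sorted cell type, the basal keratinocyte, lay mostly lower in Sox9cKO cells, though Krt5, Krt15 and Trp63 differed little. Of 12 measured, none rose and 2 fell (16.7%, against 6.19% of all genes), and 9 of the differences were negative. At an unadjusted limma p under 0.05 there were 7, without a share of all genes to set beside them. The list's median of -0.42 was the furthest from 0 among the marker lists and the fibulin-related lists. The laminin genes Lamb3 and Lama3 fell by 1.25 and 1.12 (limma adjusted p = 0.00949 and 0.0178). Further genes of the hemidesmosome, the junction that holds basal cells to the basement membrane, did not pass, with differences of -0.87 for Col17a1, -0.69 for Itgb4, -0.45 for Itga6 and -0.43 for Dst. Perp, a desmosomal gene, differed by 0.27. The keratin genes Krt14, Krt5 and Krt15 differed by -0.41, -0.005 and 0.04, Trp63 by 0.12 and Cdh3 by -0.14. The part of these basal marker differences in the fibulin values was not tested. Without SmoM2 replicate 2 the adjusted p of Lamb3 and Lama3 was 0.0704 and 0.0753, and Lama3 was at 0.0590 without Sox9cKO replicate 1 and 0.0915 when its probe sets were averaged.

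The genes whose profile was most like that of Efemp1 were found by the Euclidean distance between log2 signals over the 4 arrays, each centred on the mean of the gene. The 6 nearest were Maob (distance 0.54), Krt24 (0.55), Dcn (0.68), Zfp979 (0.72), Tmtc1 (0.74) and Clca3a2 (0.79). Maob encodes a mitochondrial amine oxidase, Krt24 an epithelial keratin and Dcn the proteoglycan decorin. Their differences lay between 3.55 and 3.99 on the log2 scale, against 4.24 for Efemp1. Zfp979 read 6.50 and 7.08 in Sox9cKO cells and 3.22 and 3.25 in SmoM2 cells, the SmoM2 values being at the level of Y-linked genes on arrays without Y-linked signal, so its difference of 3.55 and its distance are not exact. Maob read 7.24 and 8.13 in Sox9cKO cells and 3.74 and 3.87 in SmoM2 cells. The SmoM2 values of Maob lay just above that Y-linked level, so its difference and distance are not exact either. Dcn read 12.09 and 12.78 in Sox9cKO cells and 8.85 and 8.70 in SmoM2 cells. With 4 arrays in 2 groups, such likeness mostly means a rise of similar size.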

How the data were processed

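The authors deposited a log2 signal for each probe set on each array. The method of normalization and summary is not stated, and R 2.14.0 is named without a role in the submitters' processing notes. That the scale is log2 was inferred from values between 2.73 and 14.46. The medians were nearly equal, so a shift common to most genes could have been normalized away. Precision is limited by the number of arrays.

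Probe sets were named from the platform annotation, with symbols updated through entrez ID for 34741 of them. Of 45101 probe sets, 64 were controls, 932 had several symbols and 9211 were not listed, and these were left out of the gene fit. For each of 18193 genes the probe set with the highest mean stood for the gene. Sox9cKO was compared with SmoM2 with limma 3.58.1 under R 4.3.3 (linear model with the default empirical Bayes prior, no covariate, two-sided, 7.17 degrees of freedom with the prior), Benjamini-Hochberg adjusted over all genes at 0.05. Members' SEs and Sox9 came from the same fit over 45037 probe sets. How many of all genes had an unadjusted p under 0.05 was not counted, so list counts at that cut have no background. An exact permutation test of 2 arrays against 2 cannot go below a two-sided p of 0.333, so all calls rest on the spread limma shares across genes. The procedure was also run on simulated data, whose outcome is not given here and is not used as support.

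The members and gene lists were chosen with earlier results of these data known. Of each fibulin-related list the called genes and the 3 brightest others are named, of each marker list the called genes and the 2 brightest, and the 6 genes nearest to Efemp1 (clone identifiers passed over). Eln, Lox, Loxl1, Nid1, Nid2, Lamc1, Krt5, Krt15, Trp63, Cdh3, Col17a1, Itgb4, Itga6 and Dst were added after their values were seen. So were the named fibroblast markers that were not called.

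Alternatives were another probe set rule, an intensity trend and robust prior, quantile normalization, leaving out dim genes, the replicate number as a block, and each array left out. Same-numbered arrays of the groups deviated together at r = 0.12 across probe sets, and nothing in the labels says that a number marks a shared animal or day, so no pairing was used.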

Additional observations from a re-analysis of the deposited data

How the results depend on the processing

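The Efemp1 difference was at 4.08 to 4.40 with an array left out and 4.26 after quantile normalization. No member changed direction under any alternative run in which it was tested, but for most this was fixed in advance. The prior, the block and the dim filter leave a member's difference unchanged. With an array left out, only Fbln7, whose groups overlapped, could reverse. When the probe sets of each gene were averaged, 1 member was at least 2-fold apart and 1 binding partner was called. With dim genes left out, these counts were 1 member and, for the EGF repeat list, 1 call. Fbln2 and Egfl6 were then no longer in the test. The elastic fibre median was 0.23 over the 5 genes of that list left in the test. With the replicate block, 1919 genes and 3474 probe sets were called, against 1126 and 1720 without it, with 5 binding partners (Timp3, Col4a1 and Itga4 in addition) and 9 EGF repeat genes, and the cause was not tested. With an array left out, 534 to 900 genes and 1021 to 1142 probe sets were called, fewest genes without SmoM2 replicate 2 (534) or 1 (579). The number of members at least 2-fold apart was then 2 to 3, of binding partners called 0 to 5 and of EGF repeat genes called 2 to 6, with the highest counts of both lists without Sox9cKO replicate 2. The 0 came without SmoM2 replicate 2, where limma gave 7 binding partners an unadjusted p under 0.05 and the lowest adjusted p was 0.0592. In these fits the lone array is assumed to vary like the other group. Fbn2 and Egfl6 passed in every alternative in which they were tested. With 2 arrays per group, a value near the low end of the scale, such as Hmcn1 in Sox9cKO cells, may understate a difference.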

Other observations

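Timp3 and Vcan, 2 genes for partners of fibulins, differed between the Sox9cKO arrays more than Efemp1 did. Timp3 was highest on Sox9cKO replicate 1 at all 4 of its probe sets, for example with 6.95 and 5.92 in Sox9cKO cells and 5.76 and 5.42 in SmoM2 cells at 1419088_at. Vcan at 1421694_a_at read 9.08 and 7.51 in Sox9cKO cells and 6.56 and 6.35 in SmoM2 cells. Efemp1 was instead slightly higher on Sox9cKO replicate 2. Col4a1, a basement membrane collagen gene named here after its value was seen, read 9.81 and 9.35 in Sox9cKO cells and 8.87 and 8.99 in SmoM2 cells, with a limma adjusted p of 0.0970.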
